A study of Mus musculus with 7 samples.

Results

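The iron handling and ferroptosis genes are 10 genes that store, move or release iron or protect membranes from iron-driven lipid peroxidation. They were taken by symbol from the identifier column of the deposited tables, and all 10 of 10 were found among 50686 genes. They are Fth1, Ftl1, Ncoa4, Hmox1, Slc40a1, Tfrc, Slc11a1, Slc11a2, Slc7a11 and Gpx4, and all 10 passed the filter on low counts.

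The genes were measured by RNA-seq in microglia sorted from the forebrain of C57BL/6 male mice, 4 days after a 45 min occlusion of the middle cerebral artery. Young mice were 3 to 4 months old (4 libraries, from mice 14C, 18C, 23C and 29C) and old mice 21 to 22 months old (3 libraries, from mice 2posI, 3posI and 4posI). Cells of both ages were gated on CD11b and CD45 and selected as Bodipy+, meaning that they stained with a dye for the neutral lipids of lipid droplets. No microglia-depleting drug was given to either age, while the surgery used isoflurane anesthesia and buprenorphine analgesia. Sham-operated mice and Bodipy-negative cells were not analysed here, so the comparison is of age within lipid-laden microglia after ischemia.

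Cells take up iron bound to transferrin, hold it in ferritin and release it through ferroportin, and macrophages also recover iron from the heme of engulfed red cells. When cells are short of iron, iron regulatory proteins bind a hairpin called the iron-responsive element. Binding in a 5′ UTR blocks translation, and binding in a 3′ UTR protects the mRNA from decay. Ferroptosis is a form of cell death driven by iron-dependent peroxidation of membrane lipids, and it is held back by cystine import, glutathione and glutathione peroxidase 4.

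The hairpin sequences are shown because they are the elements through which iron is known to regulate these mRNAs. The UTRs of GENCODE vM21 (build GRCm38) were searched on the transcript strand for a C, then 5 bases of any kind, then the 6-base loop CAGTGN, where N is any base. The 5 bases before the loop had to pair with the 5 after it, G-T pairs allowed. The capitals mark the loop, and each sequence is written 5′ to 3′ on the gene's strand. The 5′ UTR of Fth1 held 1 match at chr19:9982732-9982760 (+), that of Ftl1 held 1 at chr7:45459779-45459807 (-), and that of Slc40a1 held 1 at chr1:45925465-45925493 (-).
Fth1: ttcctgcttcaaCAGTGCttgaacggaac
Ftl1: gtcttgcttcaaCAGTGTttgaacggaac
Slc40a1: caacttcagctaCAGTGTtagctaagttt

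The 3′ UTR of Tfrc, on the plus strand of chromosome 16, held 4 matches, at chr16:32631219-32631247, chr16:32631598-32631626, chr16:32631663-32631691 and chr16:32631710-32631738, in this order.
Tfrc site 1: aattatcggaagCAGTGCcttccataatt
Tfrc site 2: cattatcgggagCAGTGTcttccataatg
Tfrc site 3: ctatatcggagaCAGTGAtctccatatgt
Tfrc site 4: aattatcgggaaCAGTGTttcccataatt

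Over all genes with an annotated 5′ UTR, 31 of 20580 (0.151%) held a match, and 129 of 20962 (0.615%) held one in the 3′ UTR. The other 6 members held no match in either UTR, which says only that these letters were not found there. The search does not find hairpins with another loop or with a bulge in the 5 pairs next to it.

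The libraries held 36574083 to 53002386 expected counts each. All 8 microglia markers were above 0 in all 7 libraries. Old mouse 3posI stood apart: 7 markers of monocytes and infiltrating macrophages summed to 3082 CPM (counts scaled to an equal library total), against 15.6 to 146 in young mice and 110 and 132 in the other old mice. Its microglia markers summed to 14038 CPM, against 23005 to 32311 in the other 6 libraries, and its 8 border-associated macrophage markers to 1618 CPM, against 190 to 632. Fold changes of the 10 genes, and of list genes tested without 3posI, that moved by over 1.5 times are also given without it. Ribosomal RNA took 4.14% to 4.99% of the counts in young and 2.21% to 3.37% in old libraries, with no overlap. The part of these differences in the results was not tested.

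No member passed the test between ages. Levels are CPM scaled by TMM factors, and differences are log2 fold changes of old over young from the quasi-likelihood test of edgeR, with p-values adjusted over the 17559 genes tested by the Benjamini-Hochberg method. At an adjusted p under 0.05, edgeR called 0 of the 10 members, where it called 0.803% of all genes, 100 (0.57%) higher and 41 (0.233%) lower. DESeq2 called 2 members, Fth1 and Slc7a11, where it called 9.51% of the 14754 genes to which it gave an adjusted p. In simulated counts with the spread that edgeR estimated for these libraries but few changed genes, the false share of DESeq2's calls was well above its threshold. That share depends on the spread used and on how many genes change, so its size in these libraries is not known. These 2 calls therefore call for caution. At an unadjusted p under 0.05 there were 3 members, Fth1, Ftl1 and Slc7a11, where 18.9% of all genes were under it. In CPM, 3 of 10 members did not overlap between ages, where 17.7% of all genes did not. Fth1 and Slc7a11 were the higher ones (8.67% of all genes) and Slc11a2 the lower one (9.07%). By sign, 6 members were higher in old mice, against 48.8% of all genes. The median log2 fold change of the members was 0.33, against -0.01 over all genes tested. Without 3posI the members' median was 0.06, and 8 of the 10 differences moved nearer to 0.

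**Figure D1:**
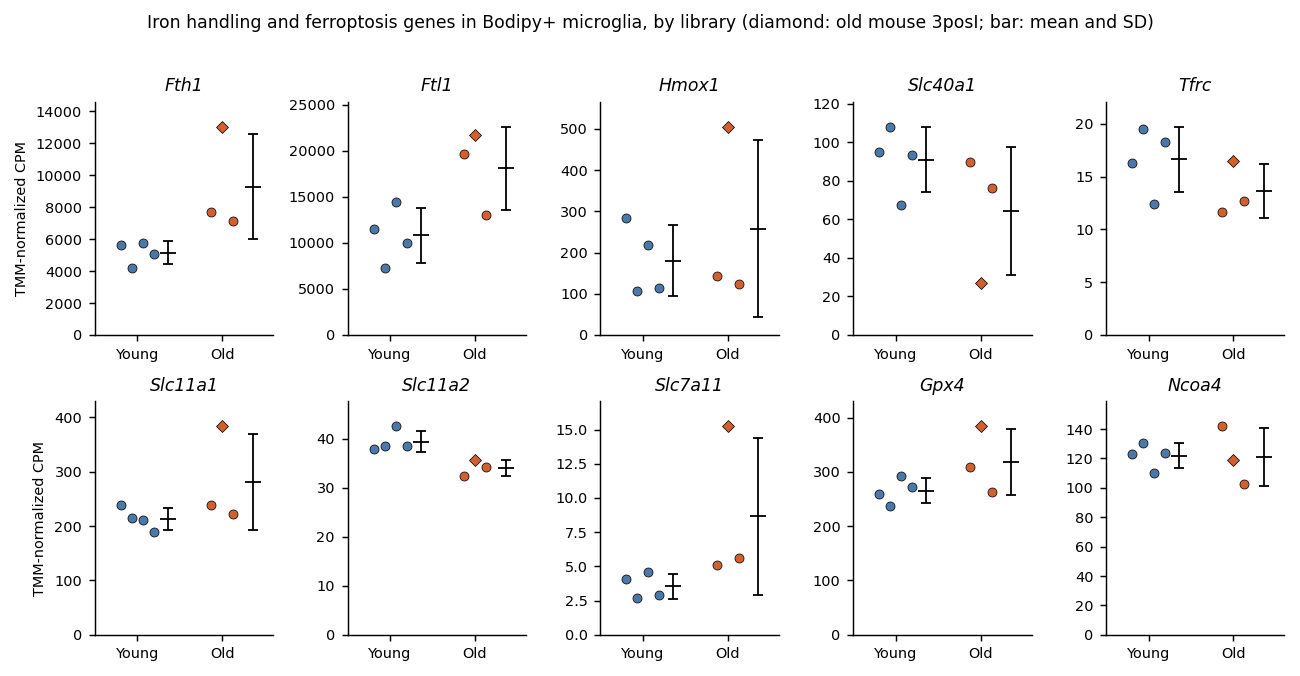
TMM-normalized CPM of each of the 10 genes (vertical axes, linear from 0) in 4 young and 3 old libraries, 1 point a library, with the mean and SD as a bar at the right of each age. The diamond is old mouse 3posI, which is the highest library for Fth1, Ftl1, Hmox1, Slc11a1, Slc7a11 and Gpx4 and the lowest for Slc40a1.

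Ferritin, the iron store, was among the most abundant transcripts. Fth1 encodes the heavy chain, which oxidises iron as it enters the shell, and Ftl1 the light chain, which helps the iron core to form. Per length, in TPM (counts scaled for transcript length and library total), Fth1 ranked between 4 and 16 and Ftl1 between 2 and 7 among all genes in each library. Together they took 1.13% to 1.94% of all expected counts in young and 2.02% to 3.17% in old libraries (two-sided exact permutation test, p = 0.0571). This test was not among those planned. The highest share was that of 3posI, with 2posI at 2.51% and 4posI at 2.02%, close to the highest young share.

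Fth1 had 5606, 4182, 5733 and 5088 CPM in young mice 14C, 18C, 23C and 29C, and 7708, 13039 and 7105 CPM in old mice 2posI, 3posI and 4posI. The 3 old values were all above the 4 young ones, and 3posI lay far above the other old mice. The means were 5152 ± 705 CPM in young (SD, n = 4) and 9284 ± 3266 CPM in old mice (SD, n = 3). The edgeR log2 fold change was 0.85 (SE 0.26, 95% interval 0.26 to 1.43), and it did not pass the threshold (edgeR, adjusted p = 0.141). An exact permutation test of Fth1 alone gave p = 0.0286, the smallest that 3 against 4 libraries allow. Without 3posI the log2 fold change was 0.52 (edgeR, adjusted p = 0.227).

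Ftl1 had 11550, 7307, 14428 and 10027 CPM in young mice 14C, 18C, 23C and 29C, and 19632, 21690 and 13039 CPM in old mice 2posI, 3posI and 4posI. Old mice 2posI and 3posI lay above all young mice, while 4posI lay below young mouse 23C. Between ages the log2 fold change was 0.74 (SE 0.29, 95% interval 0.08 to 1.40; edgeR, adjusted p = 0.217), and 0.59 without 3posI. Hemoglobin and other erythroid markers summed highest in 2posI, at 811 CPM against 177 to 337 in the other 6 libraries, and their part in the Ftl1 level of 2posI was not tested. In a ratio chosen after the values were seen, Ftl1 stood at 1.86 ± 0.28 times Fth1 in TPM in young (SD, n = 4) and 1.80 ± 0.42 times in old mice (SD, n = 3), an age difference that was not detected (exact permutation p = 0.771).

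Ncoa4 encodes the receptor that carries ferritin to the lysosome for breakdown. It had 123, 130, 110 and 124 CPM in young mice 14C, 18C, 23C and 29C, and 142, 119 and 102 CPM in old mice 2posI, 3posI and 4posI. The ages overlapped throughout, with the highest and the lowest library both old. The fitted log2 fold change was -0.01 (SE 0.14, 95% interval -0.32 to 0.31; edgeR, adjusted p = 0.982), and 0.00 without 3posI. In TPM, however, Ncoa4 lay at 63.0 to 74.1 in the young and 52.2 to 59.6 in the old mice, with no overlap (exact permutation p = 0.0286).

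Hmox1 encodes heme oxygenase 1, the inducible enzyme that frees iron from heme. It had 284, 107, 217 and 115 CPM in young mice 14C, 18C, 23C and 29C, and 144, 506 and 125 CPM in old mice 2posI, 3posI and 4posI. Library 3posI was the highest, and the other old mice lay within the young range. Old over young, the log2 fold change was 0.52 (SE 0.53, 95% interval -0.70 to 1.73; edgeR, adjusted p = 0.636), and it turned to -0.42 without 3posI. The libraries with the 2 highest Hmox1 levels, 3posI and 14C, were also those with the 2 highest sums of monocyte markers. Below them the orders differed: the marker sum was 132 CPM in 2posI and 50.3 CPM in 23C, with Hmox1 at 144 and 217 CPM. The part of those cells was not tested. In a bulk library, fewer cells of a type and less RNA per cell cannot be told apart.

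Slc40a1 encodes ferroportin, the exporter of iron from the cell. It had 95.0, 108, 67.5 and 93.3 CPM in young mice 14C, 18C, 23C and 29C, and 90.0, 27.1 and 76.1 CPM in old mice 2posI, 3posI and 4posI. The low value of 3posI stood alone, and the other old mice lay within the young range. Its log2 fold change was -0.50 (SE 0.36, 95% interval -1.32 to 0.32; edgeR, adjusted p = 0.484), -0.13 without 3posI and -0.82 without 2posI. In a ratio chosen after the values were seen, Fth1 stood at 38.6 to 84.9 times Slc40a1 in CPM in young and 85.7 to 481 times in old mice (exact permutation p = 0.0286). Fth1 alone gave the same p, so the ratio is not separate evidence. The lowest old and the highest young ratio were nearly equal, and the highest old ratio was that of 3posI, the other old mice being at 85.7 and 93.4.

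**Figure D2:**
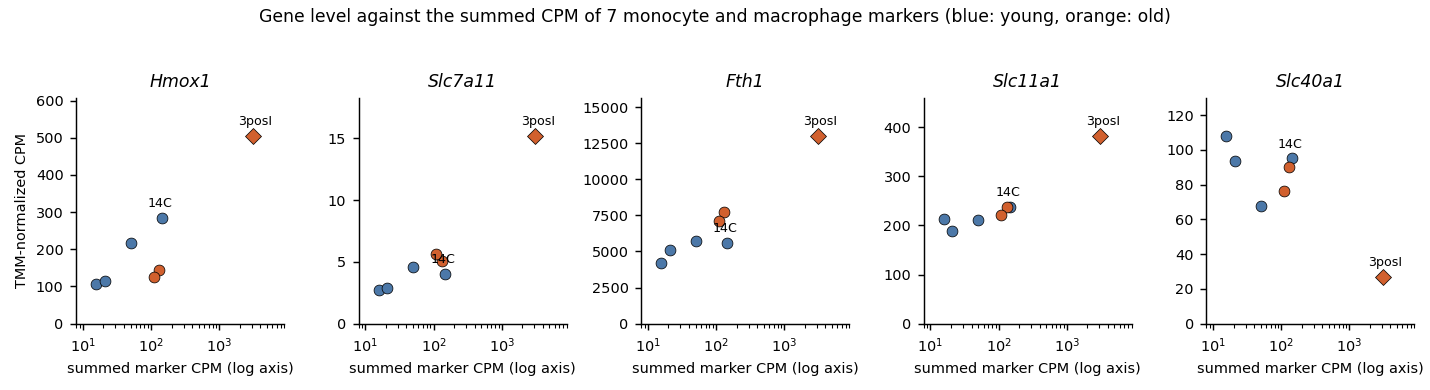
TMM-normalized CPM of Hmox1, Slc7a11, Fth1, Slc11a1 and Slc40a1 (vertical axes, linear from 0) against the summed CPM of 7 markers of monocytes and infiltrating macrophages (horizontal axis, log scale), 1 point a library, blue for young and orange for old. Library 3posI, the diamond, has the highest marker sum (3082 CPM), the highest level of the first 4 genes and the lowest of Slc40a1.

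Tfrc encodes the transferrin receptor, which brings iron into the cell. It had 16.3, 19.5, 12.4 and 18.3 CPM in young mice 14C, 18C, 23C and 29C, and 11.7, 16.5 and 12.7 CPM in old mice 2posI, 3posI and 4posI. The ages overlapped, with young mouse 23C among the low values. The edgeR log2 fold change was -0.29 (SE 0.20, 95% interval -0.74 to 0.17; edgeR, adjusted p = 0.467), and it was farther from 0 without 3posI, at -0.45 (edgeR, adjusted p = 0.295). Without 2posI it was -0.19. In TPM the ages did not overlap, at 5.37 to 6.53 in the young and 4.53 to 5.08 in the old mice (exact permutation p = 0.0571 on the log2 scale).

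Slc11a2 encodes DMT1, which moves iron out of the endosome after uptake. It had 37.9, 38.6, 42.5 and 38.5 CPM in young mice 14C, 18C, 23C and 29C, and 32.4, 35.6 and 34.2 CPM in old mice 2posI, 3posI and 4posI. All old values were under all young ones, though by a small amount. Between ages the log2 fold change was -0.21 (SE 0.11, 95% interval -0.45 to 0.03; edgeR, adjusted p = 0.325), and the exact permutation test gave p = 0.0286. Unlike Fth1, it was no nearer to 0 without 3posI, at -0.24. In TPM the ages were also apart, at 27.8 to 32.4 in the young and 17.4 to 24.9 in the old mice.

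Slc11a1 encodes NRAMP1, a metal transporter of the phagosome membrane of macrophages. It had 238, 214, 212 and 189 CPM in young mice 14C, 18C, 23C and 29C, and 239, 383 and 222 CPM in old mice 2posI, 3posI and 4posI. Library 3posI was high, and 4posI lay within the young range. The fitted log2 fold change was 0.40 (SE 0.20, 95% interval -0.06 to 0.86; edgeR, adjusted p = 0.319), and 0.11 without 3posI.

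Slc7a11 encodes xCT, the cystine importer that feeds glutathione synthesis. It was the least counted member, with 120 to 596 expected counts in each library. It had 4.05, 2.68, 4.59 and 2.90 CPM in young mice 14C, 18C, 23C and 29C, and 5.10, 15.2 and 5.61 CPM in old mice 2posI, 3posI and 4posI. All old values exceeded all young ones, but 2posI and 4posI only just. Old over young, the log2 fold change was 1.28 (SE 0.41, 95% interval 0.36 to 2.20; edgeR, adjusted p = 0.155), and 0.59 without 3posI. In TPM the ages overlapped, at 1.15 to 2.01 in the young and 1.04 to 3.85 in the old mice (exact permutation p = 0.543).

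Gpx4 encodes glutathione peroxidase 4, which reduces lipid hydroperoxides in membranes. It had 260, 237, 292 and 273 CPM in young mice 14C, 18C, 23C and 29C, and 309, 384 and 263 CPM in old mice 2posI, 3posI and 4posI. Old mouse 4posI lay inside the young range and the other old mice above it. Its log2 fold change was 0.26 (SE 0.16, 95% interval -0.09 to 0.62; edgeR, adjusted p = 0.396), and 0.11 without 3posI.

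**Figure D3:**
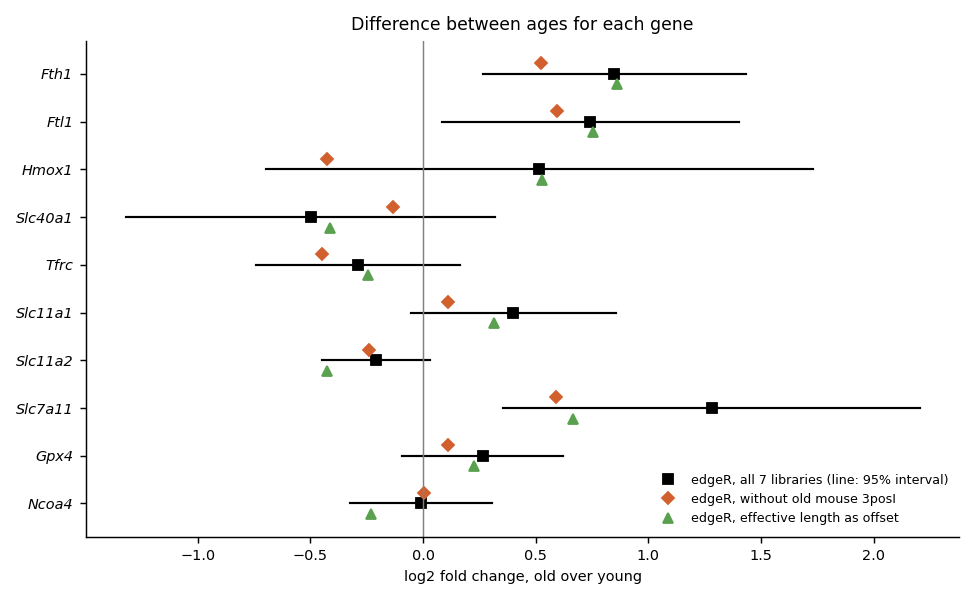
Log2 fold change of old over young (horizontal axis) for the 10 genes, with the edgeR value and its 95% interval as a square and line, the value without old mouse 3posI as a diamond, and the value with effective length as an offset as a triangle. The intervals of Fth1, Ftl1 and Slc7a11 lie above 0, and the diamond of Hmox1 lies on the other side of 0 from its square.

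CPM and TPM differ in part because TPM is divided by the effective length and carries no TMM factors. Effective length is RSEM's estimate of the length over which a gene's reads could start given the isoforms used. For Slc7a11 it was 2794 to 3806 bases in young and 4535 to 5995 in old libraries, and for Ncoa4 2364 to 2533 and 2794 to 2912. Slc11a1 (1660 to 1719 and 1768 to 1829) and Gpx4 (743 to 748 and 766 to 784) were also longer in every old library. These 4 of 10 members compare with 12.9% of all genes without overlap, and 8.7% longer in old mice. With the effective length as an offset in edgeR, the log2 fold change of Slc7a11 was 0.67 in place of 1.28 and that of Ncoa4 was -0.23 in place of -0.01. That of Slc11a2, whose effective lengths overlapped between ages, was -0.43 in place of -0.21 (edgeR, adjusted p = 0.129), and limma on log2(TPM + 1) gave -0.51. On the same TPM scale Slc7a11 had 0.27, Hmox1 0.24, Slc11a1 0.17, Gpx4 0.11 and Ncoa4 -0.34. These fits differ from edgeR by more than length, since limma replaces its test and 1 is added to each TPM. For Hmox1, limma-voom on counts gave 0.34. With 0.1 added in place of 1, Slc7a11 had 0.36. On log2(TPM + 1), 39.2% of all genes were higher in old mice by sign, against 48.8% in edgeR. Fth1, at 817 bases in every library, had 0.72 on the TPM scale against 0.85 in edgeR. Hmox1 had 0.53 with the offset against 0.52 without it. Whether the lengths reflect other isoforms or read coverage was not tested. In TPM, 4 of 10 members did not overlap between ages, where 17.5% of all genes did not. Fth1 was the higher one (6.26% of all genes), and Tfrc, Slc11a2 and Ncoa4 were lower (11.2%).

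**Figure D4:**
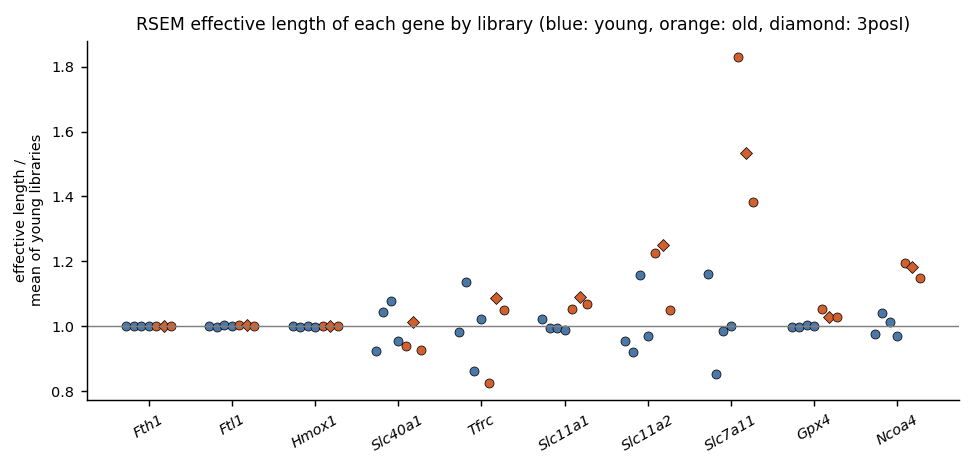
Effective length of the 10 genes by library, divided by the mean of the 4 young libraries (vertical axis, a ratio), 1 point a library. The old libraries (orange) lie above all young ones for Slc11a1, Slc7a11, Gpx4 and Ncoa4, while Fth1, Ftl1 and Hmox1 stay at a ratio of about 1.

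RSEM divides reads that match several genes, and the expected counts of Fth1, Ftl1, Slc7a11 and Gpx4 were whole numbers in 0 of 7 libraries (tolerance 0.001). Annotated copies held at most 0.0082% of the summed reads of Fth1 and its copies, and 0.376% to 0.430% for Ftl1. Summing the copies with their gene, an alternative chosen after seeing the data, left 0 of the 10 genes called by edgeR.

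Genes of iron and ferroptosis pathways were taken from 8 lists, which also hold the 10 members. Of the 98 genes, 97 were in the files and 87 were tested. Of these 87, edgeR called 1, which was higher in old mice, where it called 0.803% of all genes (0.57% higher). The 1 called gene was Pcbp2, a poly(C)-binding protein that also acts as an iron chaperone. Pcbp2 had 55.3, 62.0, 50.7 and 58.5 CPM in young and 127, 91.0 and 108 CPM in old mice 2posI, 3posI and 4posI. Its log2 fold change was 0.94 (SE 0.14; edgeR, adjusted p = 0.0308), and 1.05 without 3posI (edgeR, adjusted p = 0.0245). Leaving out any other library put it above the threshold, with adjusted p up to 0.128 by edgeR, and limma on TPM did not call it. Pcbp1, a related protein that also delivers iron to ferritin, is named here after its values were seen. It lay at 196 to 261 CPM in young and 121 to 187 CPM in old mice, with no overlap and the opposite sign (log2 fold change -0.62; edgeR, adjusted p = 0.129). Of the 15 genes of the iron uptake list, which holds both, 10 were lower in old mice by sign. No gene of the lists was called lower. Of the 87 genes, members included, 18 (20.7%) did not overlap between ages, near the 17.7% of all genes. By sign 58 were higher in old mice, where 48.8% of all genes were, and 47 without 3posI.

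In iron storage, Slc25a28, the mitochondrial iron importer mitoferrin 2, lay at 2.29 to 2.68 CPM in young and 4.44 to 9.33 CPM in old mice, just outside the threshold (log2 fold change 1.43; edgeR, adjusted p = 0.0539). The 6 tested genes of this list, with the members Fth1, Ftl1 and Ncoa4 among them, had a median log2 fold change of 0.61, and 0.56 without 3posI. In heme breakdown, Hmox2, the constitutive heme oxygenase, lay at 111 to 134 CPM in young and 147 to 191 CPM in old mice (log2 fold change 0.49; edgeR, adjusted p = 0.114). Blvra, which reduces biliverdin, lay at 48.3 to 66.5 and 71.6 to 110 CPM (0.61, adjusted p = 0.126 by edgeR). The heme synthesis enzyme Ppox had a log2 fold change of -0.44 (edgeR, adjusted p = 0.178).

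The sensors Aco1 and Ireb2, the iron regulatory proteins that bind the hairpins shown above, had log2 fold changes of -0.26 and 0.37 (edgeR, adjusted p = 0.283 and 0.295). In CPM neither overlapped between ages, as for 17.7% of all genes, with Aco1 lower and Ireb2 higher in every old library. For Ireb2 the gap was nil at 3 digits, since young mouse 18C and old mouse 3posI were both at 24.0 CPM, and in TPM its ages overlapped (3.73 to 6.40 in the young and 5.52 to 6.35 in the old mice). The clock gene Arntl had -0.26 (edgeR, adjusted p = 0.397), and -0.17 without 4posI. The exporter Abcg2 had -0.56 (edgeR, adjusted p = 0.235), and its lowest value, 14.7 CPM, was that of 3posI, without which it had -0.30.

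Of the defence genes, Gclc, which makes the first step of glutathione synthesis, lay at 9.08 to 14.7 CPM in young and 17.4 to 25.0 CPM in old mice (log2 fold change 0.77; edgeR, adjusted p = 0.112). Prdx6, a peroxidase of phospholipid peroxides, had a log2 fold change of 1.09 (edgeR, adjusted p = 0.281) that rested on 3posI, at 357 CPM against 65.0 to 103 in the other 6 libraries, and was 0.00 without it. Of the promoting genes, Lpcat3, which places polyunsaturated fatty acids in phospholipids, lay at 145 to 174 CPM in young and 103 to 128 CPM in old mice (log2 fold change -0.45; edgeR, adjusted p = 0.121). Vdac3 had 0.39 and Ptgs2 -0.82 (edgeR, adjusted p = 0.167 and 0.342). Ptgs2 had 21.5 CPM in 2posI, against 86.9 to 141 in the other 6 libraries, and a log2 fold change of -0.40 without it. The iron-sulfur cluster genes Nfu1, Bola3 and Iscu had 0.31, 0.30 and 0.30 (edgeR, adjusted p = 0.245, 0.282 and 0.307), and Iscu had 0.17 without 2posI.

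**Figure D5:**
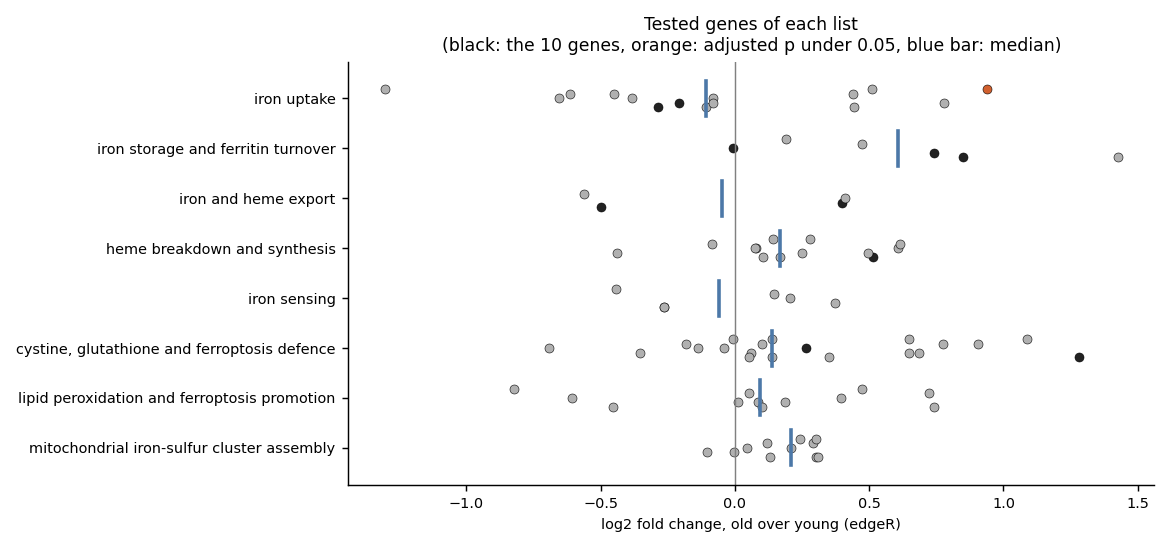
Log2 fold change of old over young from edgeR (horizontal axis) for the tested genes of 8 lists, 1 point a gene, with the list's median as a blue bar. Black points are the 10 genes, and the only orange point, past an adjusted p of 0.05, is Pcbp2.

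Genes on X were outside the main test. In the fit that kept them, Cybb, the catalytic subunit of the phagocyte NADPH oxidase, had 119, 91.5, 179 and 163 CPM in young and 228, 370 and 212 CPM in old mice 2posI, 3posI and 4posI, with no overlap (log2 fold change 0.97; edgeR, adjusted p = 0.128). Acsl4, which activates polyunsaturated fatty acids for phospholipids, had a log2 fold change of 0.40 (edgeR, adjusted p = 0.342).

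The 5 genes whose centred log2 CPM profile lay nearest to that of Fth1, among 8137 genes over the same 7 libraries, were Tmsb10, Atp2a2, Nus1, Kmt5a and Slk. Their root mean square distances were 0.0775, 0.0808, 0.0852, 0.102 and 0.105 on the log2 scale, where Fth1 itself varied by 0.492 around its mean. This likeness is a description, since the points share their libraries and 3posI is the highest for all 5.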

How the data were processed

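Reads were checked by the authors with FastQC 0.11.5, trimmed with skewer, aligned by STAR (GRCm38) and assigned to GENCODE m15 genes by RSEM. The STAR and RSEM versions were not given in the sources used here. Libraries were Smart-seq2, polyadenylated, non-stranded and without stated molecular identifiers, 1 for each mouse. The authors deposited expected counts that are not normalized, with TPM, FPKM and effective lengths for each gene. The FPKM values were not used.

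Expected counts were rounded. The filter of the study's methods was kept: autosomal genes whose expected count exceeded 10 in 1 library or more, 17559 in all. TMM factors and the quasi-likelihood test of age came from edgeR 4.0.16 (R 4.3.3). No covariate was used, since the labels name no batch or pairing. The study's own test was limma-voom, which is an alternative here. Calls have an adjusted p under 0.05 (Benjamini-Hochberg). Exact permutation tests were two-sided, on log2 CPM with a prior count of 1 or on log2(TPM + 1). Coordinates come from GENCODE vM21, a later release.

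The members and lists were chosen with earlier results of these data known. Each list names its called genes, otherwise the 3 with the smallest p and a mean of at least 1 CPM in 1 age. Alternatives used limma 3.58.1, DESeq2 1.42.0, other factors, filters, units and chromosomes, and each library left out. The tests were checked on simulated counts whose spread was that edgeR estimated from these libraries and in which few genes were changed. There edgeR missed a part of the changed genes, the 2-fold ones most, and its false share of calls was somewhat above the threshold, while that of DESeq2 was well above it. The spread was edgeR's own, so this check does not rank the 2 tests. The p-values weigh the age difference against the spread between these samples.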

Additional observations from a re-analysis of the deposited data

Results flagged for a closer look

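Among the 4 young libraries, 2 of 28 values tested had 1 library far from the others by Dixon's test, where chance at 1 in 20 gives 1.4. For Slc11a2, young mouse 23C (42.5 CPM) was apart from the other young mice (37.9 to 38.6 CPM), with a gap of 0.848 of the range. For Aco1, the same mouse (47.8 CPM) was apart from the others (41.0 to 41.6 CPM), with a gap of 0.911 of the range. Both genes lay lower in every old library. Without 23C the log2 fold change of Slc11a2 was -0.17 in place of -0.21, and that of Aco1 was -0.21 in place of -0.26.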

How the results depend on the processing

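For the 10 genes, edgeR called 0 in the main test and 0 in each fit that left out 1 library (0 to 0). DESeq2 called 2, Fth1 and Slc7a11 (DESeq2, adjusted p = 0.0121 and 0.0343), where it called 9.51% of the 14754 genes to which it gave an adjusted p. Simulated counts with edgeR's estimate of the spread and few changed genes gave DESeq2 more false calls than its threshold allows. Hmox1 turned to -0.17 with sample quality weights, and ranged from -0.42 to 0.84 over the fits without 1 library. Ncoa4 ranged from -0.14 to 0.10. Over the 10 genes, 192 of 200 alternative values kept their direction and side of the threshold. Over all genes, 141 calls became 318 with quality weights, 1403 with DESeq2, 213 with the effective length offset, 288 with no filter, 64 on log2(TPM + 1), 71 on log2(TPM + 0.1), 16 with TPM above 0 as the filter and 637 at an adjusted p under 0.1. They ranged from 1 (without 14C, 18C or 2posI) to 159 (without 3posI), with 2 without 29C, 14 without 23C and 85 without 4posI. On log2(TPM + 1) the calls split into 32 higher and 32 lower, against 100 and 41. On log2(TPM + 0.1) the median log2 fold change of all genes was -0.13 in place of -0.01. Over the lists, 1 call became 2 with quality weights, the effective length offset, no filter, filterByExpr or an adjusted p under 0.1, 10 with DESeq2 and 0 in the 3 TPM fits, and 0 to 1 without 1 library. The causes were not tested. No paired analysis was possible because each library came from a different mouse and the labels name no pairing. At 36574083 to 53002386 counts a library, Slc7a11 had the fewest counts of the 10 genes (120 to 596).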
